A study of Rattus norvegicus with 8 samples.

Results

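Molecular chaperones and the unfolded protein response (UPR) were compared between low and high passage of NR8383 cells, a line of rat alveolar macrophages that was set up from lung lavage of a normal rat. The 32 members are a list of named genes, found by the gene name of their array spots. The rule itself uses no measured value, but the list was drawn up with earlier results of these data known. They are 19 genes of the endoplasmic reticulum (ER) stress system and 13 heat shock genes, out of 36121 genes on the array. All 32 had probes, 47 probes on 107 spots of each array, and 31 could be measured. The remaining member was Hspa1b, whose probe was above background on 0 arrays.

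RNA came from cells at passage 20 (P20) and passage 200 (P200) of the same line, 4 biological replicates each. The cells were seeded 48 h before harvest, and the labels name no treatment. Each replicate was labelled with Cy3 and hybridised to its own array of 1 slide. The labels do not say whether the replicates came from separately kept cultures, so that p-values measure the spread between these 8 samples. Passage number stands for 1 line at 2 times of culture, and the labels give no independent P200 line.

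The ER folds secreted and membrane proteins with its own chaperones. When unfolded protein builds up, 3 sensors in the ER membrane are known to respond: IRE1 (Ern1), which splices Xbp1 mRNA, PERK (Eif2ak3), which slows translation and favours the factor ATF4, and ATF6. ATF6 and spliced XBP1 raise ER chaperone genes, while ATF4 raises amino acid and stress genes such as Asns, Trib3 and Chac1. The heat shock response is separate: HSF1 raises chaperones of the cytosol and mitochondria. Splicing, phosphorylation and cleavage carry much of this signalling, and an expression array does not measure them.

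The promoters of the ER chaperones and of the heat shock genes are shown first, since elements known for each response occur in some of them. RefSeq (assembly GRCr8) gave a promoter window for 25 of the 32 members, from 250 bases before to 50 bases after the gene start. The ER stress response element, searched on both strands as CCAAT, 9 bases of any kind and CCACG, was present in 22 of 33469 windows of this length (0.0657%). Windows of 5 members held it: 4 of the 9 ER folding genes with a window (Calr, Canx, Hsp90b1 and Hspa5) and Xbp1. It was in 0 of 8 cytosolic, 0 of 3 mitochondrial and 0 of 3 ATF4 target windows. The matches are printed on the strand of the motif, with its fixed letters in capitals.
Hspa5, chr3:38452973-38452991, plus strand: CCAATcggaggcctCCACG
Calr, chr19:40213135-40213153, minus strand: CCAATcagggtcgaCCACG
Canx, chr10:35158069-35158087, minus strand: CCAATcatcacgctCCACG
Hsp90b1 distal, chr7:23012451-23012469, minus strand: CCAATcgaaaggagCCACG
Hsp90b1 proximal, chr7:23012347-23012365, plus strand: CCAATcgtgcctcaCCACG
Xbp1, chr14:84604558-84604576, plus strand: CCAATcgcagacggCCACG

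The Hspa5 element began 43 bases before the gene start. The 250 bases before that start (GRCr8, chr3:38452766-38453015, plus strand) are printed as the example of an ER chaperone promoter, with the element in capitals.
Hspa5 promoter: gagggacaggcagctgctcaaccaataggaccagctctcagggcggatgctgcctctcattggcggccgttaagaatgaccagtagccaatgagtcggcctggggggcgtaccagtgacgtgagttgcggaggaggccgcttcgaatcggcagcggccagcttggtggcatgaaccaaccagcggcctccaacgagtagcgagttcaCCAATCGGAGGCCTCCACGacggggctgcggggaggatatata

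The heat shock element, searched on both strands as the triplet TTC, GAA, TTC with 2 bases of any kind between its units, was present in 267 of the 33469 windows (0.798%). It was in 3 of 8 cytosolic windows (Dnaja1, Hspa8 and Hsph1) and in 2 of 3 mitochondrial ones (Hspd1 and Hspe1). The 9 ER folding windows and the window of Hspa1a held 0 triplets. The windows follow the RefSeq gene starts, and it was not checked that transcripts in these cells begin there. An element outside a window, for Hspa1a as for any member, would not be found. A pair of units alone (GAANNTTC or TTCNNGAA) was in 15.85% of all windows. It was in 5 of 8 cytosolic, 3 of 3 mitochondrial and 0 of 9 ER folding windows. Of the 2 windows of the sensors and Xbp1, 1 held it (Eif2ak3), and that of Hspa1a did not. Hspd1 and Hspe1 lie head to head, and their windows share the same pair of overlapping triplets. Hspa8 held 2 separate triplets, and the Hsph1 and Dnaja1 triplets have the same letters.
Hspa8 proximal, chr8:50080459-50080471, plus strand: TTCtgGAAggTTC
Hspa8 distal, chr8:50080301-50080313, minus strand: TTCtgGAActTTC
Hsph1, chr12:10427332-10427344, plus strand: TTCtgGAAagTTC
Dnaja1, chr5:60638413-60638425, minus strand: TTCtgGAAagTTC
Hspe1 and Hspd1, chr9:64084262-64084274, plus strand: TTCtaGAAccTTC
Hspe1 and Hspd1, chr9:64084267-64084279, minus strand: TTCcgGAAggTTC

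An amino acid response element, searched as TGATGNAAN or TTGCATCA, was in 3.97% of all windows and in those of Trib3, Chac1, Herpud1 and Hspa9. The window of Asns, the remaining ATF4 target, did not hold it. The sequence TGACGTGG, an XBP1 and ATF6 element, was in 0.595% of all windows and among the members in that of Hyou1. These are matches of letters, and no binding was measured.

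Of the 31 measured members 1 passed the test, the inducible Hsp70 gene Hspa1a, which was lower at P200, and 0 were higher (limma, two-sided, Benjamini-Hochberg adjusted p under 0.05 over 15651 genes). Hspa1a entered the test only through P20, and its probe was well above background on 0 P200 arrays. Over all genes tested the share that passed was 11.5%, with 5.62% lower and 5.84% higher. At an unadjusted p under 0.05 there were 7 members (5 lower, 2 higher), against 23.7% of all genes. All P200 arrays lay below all P20 arrays for 5 members (Hspa1a, Calr, Dnajb9, Pdia6 and Hspa5), against 9.78% of all genes in that direction, and 0 members lay apart in the other direction, against 9.66%. The median absolute log2 change was 0.14 over the members and 0.12 over all genes. Of the 31 members 26 had a 95% interval that stayed within 0.5 log2 units of 0, and 29 stayed within 1 log2 unit. Values below are log2 processed signal less the 75th percentile of the array, called log2 signal, and a change is the P200 mean minus the P20 mean with its moderated standard error (SE, n = 4 per group). Signals of different probes are not comparable with each other.

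**Figure D1:**
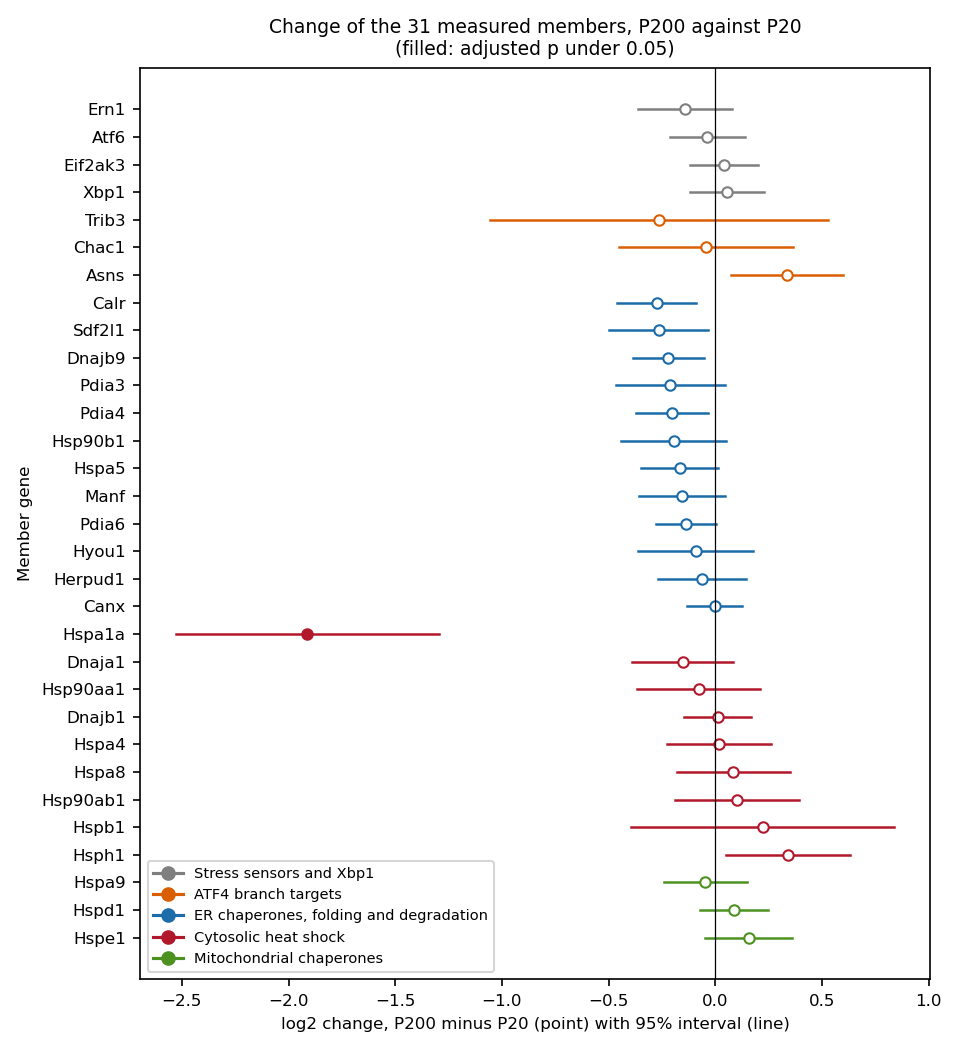
Log2 change from P20 to P200 of the 31 measured members, grouped by role, with the 95% interval of the limma fit as a line (n = 4 arrays per group). Hspa1a is the filled point at -1.91, past the test, and all 12 ER folding points lie at or left of 0. The P200 signal of Hspa1a was not well above background.

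Between 51.0% and 54.5% of spots were well above background on each array, and 0 spots were saturated. The 75th percentile of the signal ranged from 979 to 1869, with the lowest value on P200 replicate 4. Of 10 macrophage markers on the array 8 were well above background on all 8 arrays, among them Ptprc, Cd68, Csf1r and Spi1, while Cd163 was above it on 0. The alveolar macrophage receptor Marco was above background on 1 P200 array and 0 P20 arrays. Lung epithelial and lymphocyte markers were on all 8 arrays in 0 of 8 and 0 of 5 cases. Those of fibroblasts were in 2 of 6 (Col1a2 and Dcn), of endothelium in 3 of 5 (Pecam1, Cdh5 and Vwf) and of granulocytes and mast cells in 1 of 6 (Camp). Of the markers measured 2 passed the test, both lower at P200: Itgam, with a change of -0.78 (limma, adjusted p = 0.00526), and Camp, with -1.13 (limma, adjusted p = 5.79e-05). The part of these genes in the results was not tested. Arrays correlated at 0.993 to 0.996 within P20, 0.988 to 0.997 within P200 and 0.977 to 0.983 between the groups (Pearson r across genes, which are not independent).

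The sensors and Xbp1 did not pass the test. Ern1 read -2.52, -2.58, -2.61 and -2.76 on P20 replicates 1 to 4, and -2.63, -2.77, -2.64 and -3.0 on P200 replicates 1 to 4. The lowest P20 array lay among the P200 arrays, so that the groups overlapped. The change of Ern1 was -0.14 ± 0.10 (limma, Benjamini-Hochberg adjusted p = 0.451).

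Xbp1, the transcription factor downstream of IRE1, read 2.81, 2.84, 2.83 and 2.90 at P20 and 2.77, 2.90, 2.85 and 3.08 at P200. Its lowest and its highest value were both P200 arrays. The change was 0.05 ± 0.08 (limma, adjusted p = 0.736), and the 95% interval of -0.12 to 0.23 held 0. The probe reads total Xbp1 mRNA as far as the files tell, and the spliced form was not distinguished. Eif2ak3 (PERK) changed by 0.04 ± 0.07 and Atf6 by -0.04 ± 0.08. A second Atf6 probe had the opposite sign, 0.12 ± 0.07 (limma over all 19458 probes that passed the filter, adjusted p = 0.39). On the 1 probe used for each gene, no interval of the 4 genes reached beyond a 1.29-fold fall or a 1.17-fold rise. The second Atf6 probe is not part of these limits.

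The 3 ATF4 targets did not move as a group, and on each of them P200 replicate 1 was the highest of all 8 arrays. That array was the highest for 12.0% of all genes. Asns, asparagine synthetase, read 2.83, 2.85, 3.10 and 3.00 at P20 and 3.51, 3.12, 3.08 and 3.41 at P200. P200 replicates 1 and 4 were the high ones, and P200 replicate 3 lay below P20 replicate 3. Its change was 0.34 ± 0.11, a 1.26-fold difference that did not pass (limma, adjusted p = 0.105).

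Trib3, a pseudokinase that restrains ATF4 signalling, read -0.89, -1.07, -0.18 and -0.81 at P20. At P200 it read 0.08 on replicate 1 and -1.47, -1.30 and -1.32 on the other three. P200 replicate 1 was above every P20 array, and the rest of P200 was below every P20 array. The mean change of -0.26 ± 0.35 (limma, adjusted p = 0.719) was within the spread. It was -0.63 without P200 replicate 1 (adjusted p = 0.0945), -0.08 without P20 replicate 3 and -0.11 to -0.16 without any other single P200 array.

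Chac1, which degrades glutathione, was also highest on replicate 1 and lowest on replicate 2 among the P200 arrays, with -2.23 on replicate 1 and -3.12, -2.99 and -2.70 on replicates 2 to 4, around P20 values of -2.79, -2.82, -2.66 and -2.58. Its change was -0.04 ± 0.18 (limma, adjusted p = 0.919). P200 replicate 1 is the only P200 array in its row of the slide, beside 3 P20 arrays, and with the row as a block the changes of Trib3 and Chac1 turned to 0.15 and 0.16. The change of Chac1 also turned to 0.02 with arrays centred on the median and to 0.08 without P200 replicate 2. Atf4 itself, which is no member, read 4.41 on P200 replicate 1 against 3.57 to 3.76 on the other P200 arrays and 3.55 to 3.86 at P20.

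**Figure D2:**
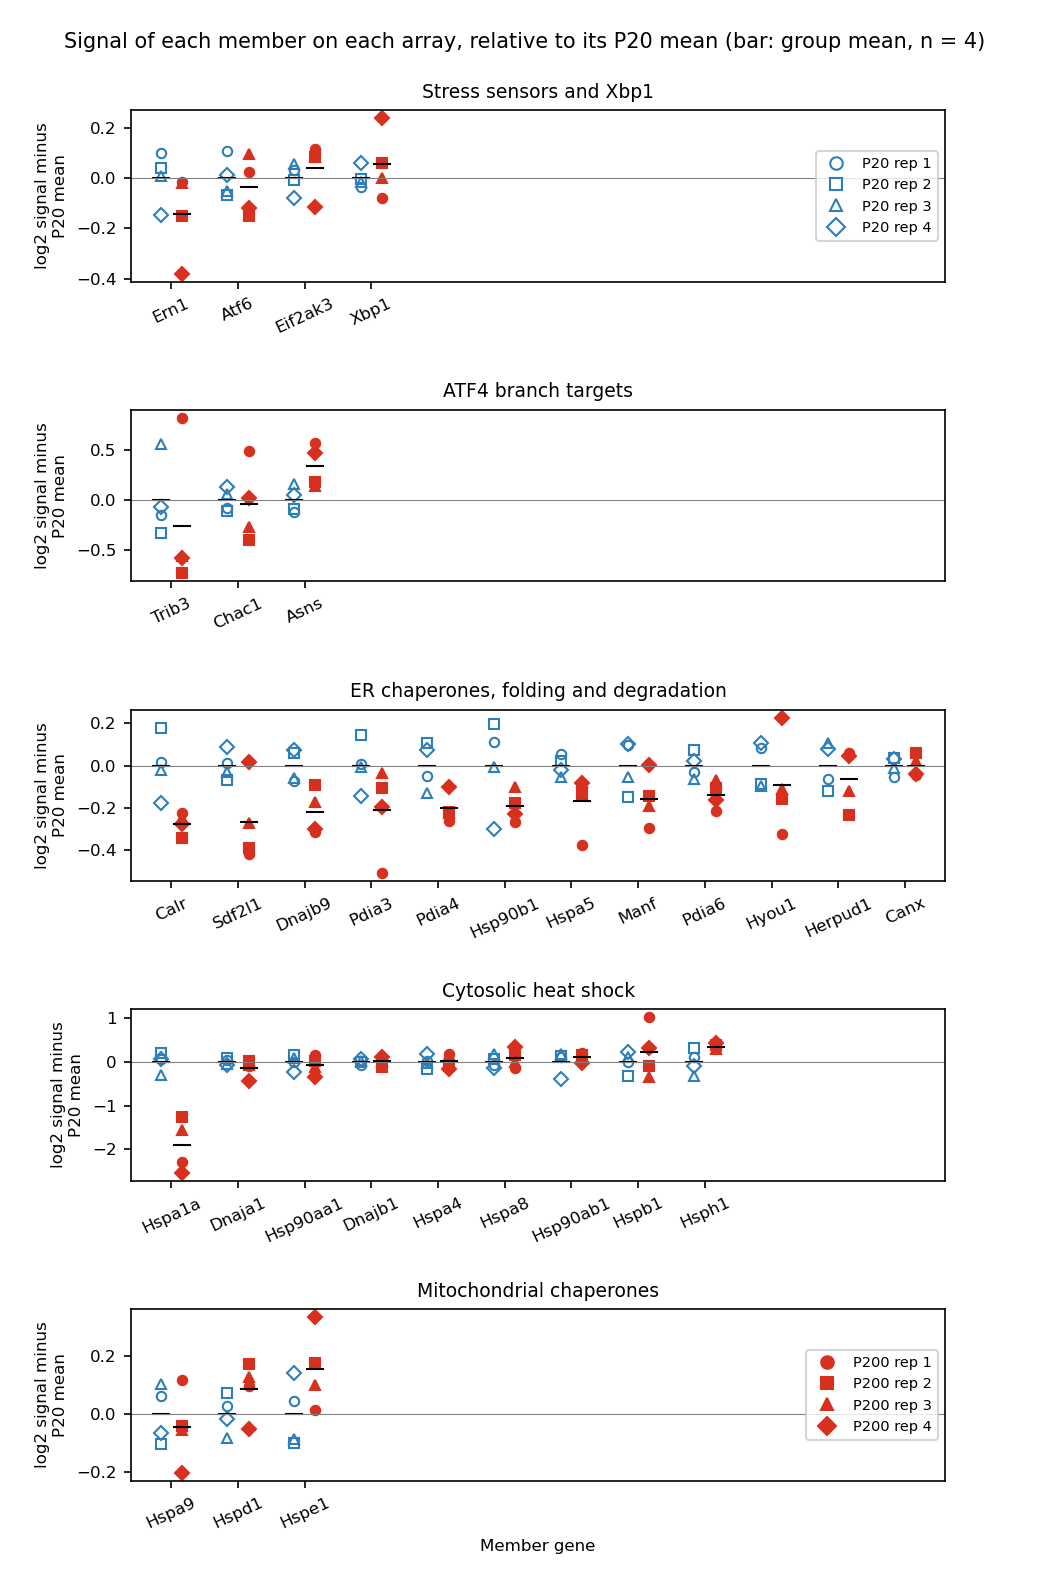
Log2 signal of each measured member on each array, less the mean of its 4 P20 arrays, in 5 panels by role with scales of their own. Open blue symbols are P20, filled red symbols P200, the shape is the replicate number and the bar is the group mean. Trib3, Chac1 and Asns have the P200 replicate 1 circle at the top, and most ER folding genes have it at the bottom.

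The 12 genes of ER folding and degradation all had a change below 0, where 49.1% of all genes did, and 0 of the 12 passed the test. Their median change was -0.18, against 0.0036 over all 15651 genes. At an unadjusted p under 0.05 there were 4 (Calr, Dnajb9, Pdia4 and Sdf2l1), against 23.7% of all genes, or 11.9% in this direction. All P200 arrays lay below all P20 arrays for 4, against 9.78% of all genes. The 12 intervals together ran from -0.50 to 0.18, so that none reached beyond a 1.41-fold fall. P200 replicate 1 was the lowest of the 8 arrays for 8 of the 12 genes, against 16.0% of all genes. Without that array 11 of the 12 changes were below 0 and their median was -0.11.

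Calr, calreticulin, the soluble lectin that holds new glycoproteins and binds calcium, read 3.31, 3.47, 3.27 and 3.11 at P20 and 3.06, 2.95, 3.04 and 3.01 at P200. Every P200 array was below every P20 array, and the P200 arrays spread less (SD 0.05 against 0.15). The change of -0.27 ± 0.08, or 1.21-fold, did not pass (limma, adjusted p = 0.0667). It passed when P20 replicate 4, the lowest P20 array, was left out (-0.33, adjusted p = 0.0323).

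Dnajb9 (ERdj4), a co-chaperone that passes clients to BiP, read -2.38, -2.25, -2.36 and -2.23 at P20 and -2.62, -2.40, -2.48 and -2.61 at P200. The groups did not overlap, with a gap between P20 replicate 1 and P200 replicate 2 that was smaller than either group's spread. Its change was -0.22 ± 0.07 (limma, adjusted p = 0.0998).

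Sdf2l1, which works with BiP and ER J-proteins, read 3.77, 3.70, 3.73 and 3.85 at P20 and 3.35, 3.37, 3.49 and 3.78 at P200. P200 replicates 1, 2 and 3 were below every P20 array, while P200 replicate 4 lay among them. The change was -0.27 ± 0.10 (limma, adjusted p = 0.146), and -0.36 without P200 replicate 4, where it passed (adjusted p = 0.0126).

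Hspa5 (BiP, GRP78), the ER Hsp70 that also holds the sensors inactive, read 3.61, 3.57, 3.50 and 3.53 at P20 and 3.18, 3.42, 3.48 and 3.47 at P200. The groups did not overlap, but 3 of the P200 arrays were close below P20 and replicate 1 was far below. The change was -0.17 ± 0.08, or 1.12-fold (limma, adjusted p = 0.25), and -0.098 without P200 replicate 1. The disulfide isomerases Pdia4, Pdia3 and Pdia6 changed by -0.20, -0.21 and -0.14, and the ER Hsp90 gene Hsp90b1 by -0.19. Manf, a secreted ER stress protein, changed by -0.16, the Hsp70-like Hyou1 by -0.09 and Herpud1, of ER-associated degradation, by -0.06. Without P200 replicate 1 the change of Pdia3 was -0.11 and that of Hyou1 -0.015. The membrane lectin Canx, the partner of Calr, changed by -0.0017 ± 0.06, with a 95% interval of -0.13 to 0.13. None of these passed (limma, adjusted p from 0.126 for Pdia4 to 0.991 for Canx).

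Among the 4 ER folding genes with the ER stress response element in the RefSeq window the changes were -0.27 (Calr), -0.19 (Hsp90b1), -0.17 (Hspa5) and -0.0017 (Canx). The promoter element thus occurred at both ends of the range of changes.

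The cytosolic heat shock genes did not share a direction. Of the 9 measured 3 had a change below 0 and 6 above, with a median of 0.02. The one that passed was Hspa1a, the stress-inducible Hsp70 that is low in unstressed cells. Its probe read -5.14, -5.01, -5.51 and -5.15 at P20 and -7.48, -6.47, -6.75 and -7.74 at P200. It was well above background on all P20 arrays and on 0 P200 arrays, and the groups lay far apart. The fitted change was -1.91 ± 0.27 (limma, Benjamini-Hochberg adjusted p = 0.00205). Since the P200 signal is not well above background, a more cautious fold of 2.30 lower at P200 is given too. It sets the P20 mean against, on each P200 array, the higher of the probe's own signal and the lowest signal well above background. This fold is not a strict lower bound, since probes not marked as well above background can read higher than that lowest signal. On P200 replicate 2 the probe lay above that lowest signal, at -6.47 against -6.60, without being marked as well above background. The probe passed the filter only through P20, and its P200 values in every fit are not well above background. Refits of these same values are no separate support for the call. With the slide row as a block Hspa1a still passed (limma, adjusted p = 0.00701). The call held without any 1 array (limma, adjusted p up to 0.00913). It did not hold after normexp background correction, with a change of -0.39 (limma, adjusted p = 0.0831). That setting adds an offset of 50 to each signal, which by itself shrinks log2 changes of dim probes. On the spot medians of the series matrix, which hold no background subtraction, the change was -0.46 (limma, adjusted p = 0.049).

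The Hspa1a result rests on 1 of 2 probes, and the gene has a near-identical copy, Hspa1b. The probe sequences are printed since they decide what was read. The first, which gave the call, has no map position in the scanner files. The second lies at chr20:3956838-3956897 and the Hspa1b probe at chr20:3959493-3959552 (both plus strand, rn4), and no rn4 sequence or gene annotation was used here to place them in an exon or UTR.
Hspa1a first probe: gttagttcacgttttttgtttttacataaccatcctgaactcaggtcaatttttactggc
Hspa1a second probe: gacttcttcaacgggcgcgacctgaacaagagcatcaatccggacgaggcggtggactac
Hspa1b probe: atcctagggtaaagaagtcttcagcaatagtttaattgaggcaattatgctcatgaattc
The longest run shared by any pair of these 60-base probes was 7 bases. That compares the probes with each other only, and does not show whether a probe also binds transcripts of the other gene. The second Hspa1a probe was well above background on 0 of 8 arrays and read -8.41, -8.59, -6.03 and -7.23 at P20 and -7.17, -8.34, -6.58 and -6.07 at P200. It thus gave no order between the groups. The Hspa1b probe, also above background on 0 arrays, read between -8.64 and -7.54. Transcripts of Hspa1a and Hspa1b cannot be told apart with certainty where their sequences are the same.

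**Figure D3:**
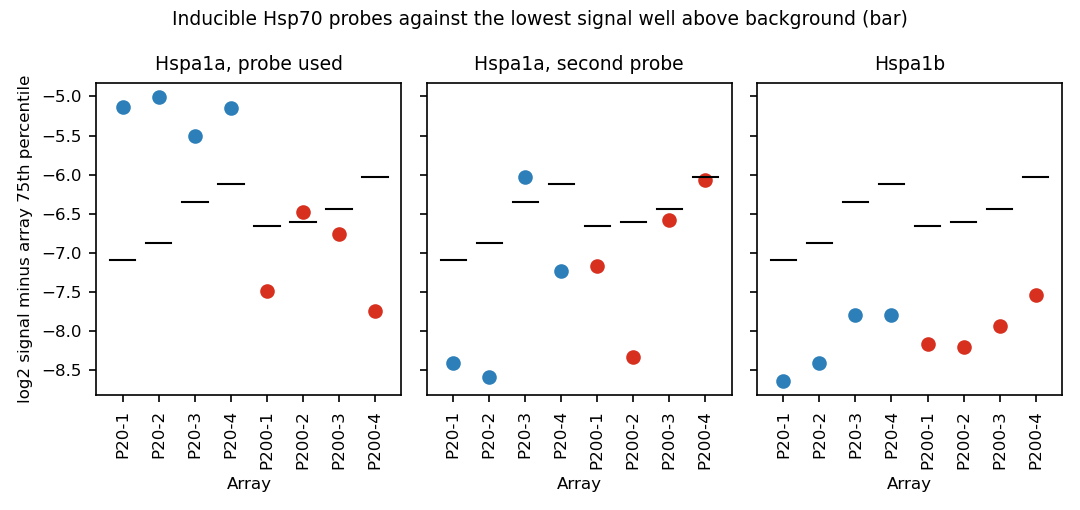
Log2 signal of the 2 Hspa1a probes and the Hspa1b probe on each array (P20 blue, P200 red), with the lowest signal of any probe well above background on that array as a black bar. The first Hspa1a probe is above the bar on all 4 P20 arrays, and the Hspa1b probe is below it on all 8 arrays.

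Hsph1, the Hsp110 exchange factor of Hsp70, read -3.22, -3.01, -3.65 and -3.44 at P20 and -3.04, -2.96, -3.03 and -2.91 at P200. P200 arrays were at the top of the P20 range, and P20 replicate 2 lay among them. The change of 0.34 ± 0.13 did not pass (limma, adjusted p = 0.139), and it passed without P20 replicate 2 (0.45, adjusted p = 0.0395).

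Hspa8, the constitutive Hsc70, read 6.60, 6.73, 6.85 and 6.53 at P20 and 6.52, 6.84, 6.68 and 7.01 at P200. The groups overlapped throughout, and 4 Hspa8 probes changed by 0.08 to 0.10. The change of the probe used was 0.09 ± 0.12 (limma, adjusted p = 0.729). The small heat shock gene Hspb1 read -3.22 on P200 replicate 1 and between -4.57 and -3.92 on the other 7 arrays. Its change of 0.22 ± 0.27 became -0.04 without that array.

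Hsp90ab1, the constitutive cytosolic Hsp90, changed by 0.10 ± 0.13 and its inducible relative Hsp90aa1 by -0.08 ± 0.13. Without P20 replicate 4, its lowest array, the change of Hsp90ab1 was -0.03. One of 3 Hsp90aa1 probes, designed on an expressed sequence tag, lies at chr6:135413903-135413962 on the plus strand (rn4), opposite to the other two, and changed by -0.38 ± 0.14 (limma over all probes, adjusted p = 0.13). That probe was well above background on 4 P20 but 3 P200 arrays, and passed the filter only through P20. The remaining Hsp90aa1 probe changed by -0.05. The co-chaperones Dnaja1 and Dnajb1 changed by -0.15 ± 0.10 and 0.01 ± 0.07, and Hspa4, another Hsp110 family gene, by 0.02 ± 0.11. None of these passed (limma, adjusted p from 0.443 to 0.951).

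The 3 mitochondrial chaperones did not pass. Hspe1 (Hsp10) read 4.46, 4.32, 4.33 and 4.56 at P20 and 4.43, 4.59, 4.51 and 4.75 at P200. P200 replicate 4 was highest and P20 replicates 2 and 3 lowest, with the rest mixed. Its change was 0.16 ± 0.09 (limma, adjusted p = 0.352).

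Hspd1 (Hsp60), which forms the folding chamber that Hsp10 closes, read 3.49, 3.53, 3.38 and 3.44 at P20 and 3.56, 3.63, 3.59 and 3.41 at P200. P200 replicates 1 to 3 were above all P20 arrays and P200 replicate 4 was not. The change was 0.09 ± 0.07 (limma, adjusted p = 0.526). Hspe1 and Hspd1, which share the promoter region shown above, both had positive changes on every probe that passed the filter, 0.14 to 0.16 over 2 Hspe1 probes and 0.05 to 0.14 over 3 Hspd1 probes. Hspa9 (mortalin), the mitochondrial Hsp70, changed by -0.05 ± 0.08 (limma, adjusted p = 0.805).

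The heat shock genes were set against the ER genes on each array. The median change was 0.05 over the 12 measured heat shock genes and -0.14 over the 19 ER genes, a difference of 0.19. On single arrays, with each gene centred on its mean over all arrays, the heat shock median minus the ER median was -0.06, -0.02, -0.02 and -0.08 on P20 replicates 1 to 4. It was 0.19, 0.15, 0.04 and -0.04 on P200 replicates 1 to 4. P200 replicates 1 to 3 were above all P20 arrays, and P200 replicate 4 lay within the P20 range. Without P200 replicate 1 the difference was 0.096. The 2 gene sets were chosen with earlier results known, so the score has no test.

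**Figure D4:**
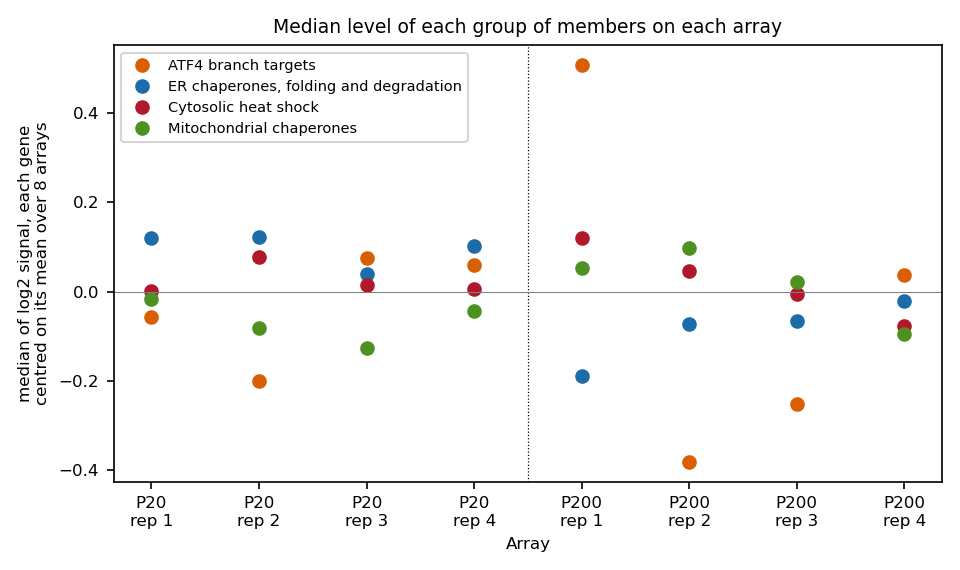
Median of the log2 signal over the members of 4 roles on each array, each gene centred on its mean over the 8 arrays. ER folding medians are 0.04 to 0.12 on the P20 arrays and -0.19 to -0.02 on the P200 arrays, while the ATF4 target median is 0.51 on P200 replicate 1 and -0.38 to 0.04 on the other P200 arrays.

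Other genes of the same pathways were taken in lists that do not hold the members, and their counts are to be read against the 11.5% of all genes that passed and the 23.7% with an unadjusted p under 0.05. In the list of ER folding and degradation, 37 of 39 entries were measured, 1 was higher, 3 were lower and 33 did not pass, with 12 at an unadjusted p under 0.05. The count that passed, 4 of 37, is near the share over all genes. Os9, a lectin of ER-associated degradation, read 0.46, 0.52, 0.48 and 0.60 at P20 and 0.87, 1.06, 0.96 and 1.09 at P200. All P200 arrays were above all P20 arrays, with a change of 0.48 ± 0.07 (limma, adjusted p = 0.00231). The oxidase Ero1b (-0.38, adjusted p = 0.0236), the disulfide isomerase P4hb (-0.27, adjusted p = 0.0253) and Selenos, a selenoprotein of the degradation complex (-0.39, adjusted p = 0.0381), were lower by the same limma test. Os9 passed in all 20 alternative settings tried. Ero1b, P4hb and Selenos did not pass in 10 of 19, 9 of 20 and 11 of 19 settings (adjusted p up to 0.324, 0.469 and 0.330), among them each setting without 1 of the P20 arrays, the replicate block and the slide row as a block. The median change of the list was -0.03.

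In the list of UPR regulators and the ATF4 branch, 29 of 32 entries were measured, 0 were higher, 1 was lower and 28 did not pass, with 12 at an unadjusted p under 0.05 and a median of 0.01. The lower one was the transcription factor Atf3, with 1.35, 1.39, 1.35 and 1.47 at P20 and between 0.83 and 1.11 at P200, a change of -0.36 ± 0.08 (limma, adjusted p = 0.0213). It did not pass without any 1 P20 array, with the replicate block, with the slide row as a block, with arrays centred on the median or with no filter on dim probes (adjusted p up to 0.356 over all settings). P200 replicate 1 was the highest of the 8 arrays for 10 of these 29 genes, Atf4 among them, and the lowest for 6. P20 replicate 3 and P200 replicate 4 were the highest for 7 each, where they were the highest for 9.39% and 33.1% of all genes.

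The chaperonin and prefoldin list had 1 gene higher, 1 lower and 11 not past among 13 measured, with 2 at an unadjusted p under 0.05. Both were prefoldin subunits, which hand new chains to the chaperonin: Pfdn5 with 0.48 ± 0.11 (limma, adjusted p = 0.0215) and Pfdn1 with -0.31 ± 0.06 (limma, adjusted p = 0.0132). With the row of the array on the slide as a block, or with no filter on dim probes, neither passed. Pfdn1 also did not pass with the replicate block or with arrays centred on the median. Pfdn5 also did not pass without P200 replicate 3 or without P200 replicate 4. Over all settings the adjusted p was up to 0.145 for Pfdn5 and 0.365 for Pfdn1. Of 29 measured heat shock regulators and co-chaperones 0 passed, with 8 at an unadjusted p under 0.05 and a median change of 0.02. Of 9 measured mitochondrial stress genes 0 passed with limma, and 0 had an unadjusted p under 0.05.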

How the data were processed

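Total RNA of 8 samples (4 at P20, 4 at P200) was read on single-colour Agilent arrays. The deposited scanner files hold the intensity of each spot, background-subtracted by the authors' scanner software, Agilent Feature Extraction 11.0.1.1, per the submitters' processing notes, with no scaling between arrays. The deposited series matrix holds the spot median intensity, and its P200 columns 1 to 4 hold scanner arrays 2, 3, 4 and 1. Its column medians run from 63 to 82.5. Replicate numbers here follow the scanner files.

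Of 62976 spots per array 4259 controls and all outlier spots were left out. Spots of a probe were averaged, taken to log2 and reduced by the 75th percentile of the array. The filter kept 19458 probes that were well above background throughout P20 or throughout P200. The probe of highest mean signal stood for each of 15651 genes. Groups were compared with limma 3.58.1 in R 4.3.3 without covariates. In data simulated for P200 against P20 over 15651 genes, the same procedure called 58.2%, 83.6% and 92.4% of genes changed by 0.5, 1 and 2 log2 units. The simulation changed 67, 67 and 66 genes at these sizes, fewer than the 1793 that passed in the data. Its smallest change was larger than that of any member but Hspa1a, so it gives no recovery for changes of their size. Arrays give no read depth, and their number limits the precision.

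Per-array values are given for Hspa1a, the 2 members of smallest p in each role and the member of highest signal in 3 roles, plus Hspa5 and Chac1, chosen after their values were seen. The list genes named are those called, plus Atf4, chosen after its values were seen. The members, lists and rules were chosen with earlier results of these data known. The array that is highest or lowest was described after the values were seen. Alternative settings covered scaling, background, filters, probe choice, names, the series matrix, blocks and leaving out each array.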

Additional observations from a re-analysis of the deposited data

Results flagged for a closer look

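Of 62 groups of 4 arrays (31 members, each at P20 and P200), 3 had 1 array far from the others, measured by its gap as a share of the group's range (Dixon's criterion at 95%). Chance gives such an array in about 1 in 20 groups. Trib3 read 0.08 on P200 replicate 1, against -1.47 to -1.30 on the other P200 arrays. Eif2ak3 read -1.66 on P200 replicate 4, against -1.46 to -1.43. Hsp90ab1 read 4.33 on P20 replicate 4, against 4.82 to 4.89.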

How the results depend on the processing

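Over 20 alternative settings Hspa1a passed in 18 of the 19 that measured it. In all of these its P200 signal was not well above background. The count of members that passed, 1 in the report, was 0 with normexp background correction (Hspa1a -0.39, adjusted p = 0.0831) and 0 with probes well above background on all 8 arrays, where Hspa1a is not measured. Without 1 array it was 1 to 2, the second being Hsph1 (0.45) without P20 replicate 2, Calr (-0.33) without P20 replicate 4 or Sdf2l1 (-0.36) without P200 replicate 4. The count over all genes was 1164 with arrays centred on the median (740 higher, 424 lower, against 914 and 879), 800 with no filter on dim probes and 1227 to 1706 without 1 array. Centring on the median moved the median of all genes to 0.07, the heat shock median to 0.11 and the ER median to -0.079. The ER median was -0.12 on the series matrix. Without 1 array the heat shock median was -0.016 to 0.058, the ER median -0.16 to -0.11 and their difference 0.10 to 0.20, with the lowest difference without P200 replicate 1. The 12 ER folding changes were all below 0 in 12 of the 20 settings, and 11 were in the others. Some settings left each of these changes as in the report, so the count overstates how far they were tried. These were the replicate block, the scanner file names, the mean of a gene's probes and the changed filters on dim probes. The cause of the shifts between settings was not tested.

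By the replicate numbers of the scanner files, deviations of same-numbered arrays correlated at -0.0032 to 0.282. By these numbers 3 of 8 arrays correlated best with their own number. With the P200 numbers of the series matrix the same-numbered pairs correlated at 0.225, 0.067, 0.10 and -0.11. With 4 arrays per group these values cannot decide whether either numbering pairs the samples. With the replicate block 1495 genes and 1 member, Hspa1a, passed. With the slide row as a block 1271 genes and Hspa1a passed. Signal not well above background limits Hspa1a at P200 and Hspa1b in both groups.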

Other observations

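A second probe for Asns, named in the files by an Ensembl transcript and therefore outside the gene name rule, read 0.91, 1.03, 1.18 and 0.93 at P20 and 1.70, 1.16, 1.28 and 1.47 at P200. P200 replicate 1 was again the highest array and P200 replicate 4 the next. Its change was 0.39 ± 0.12 (limma over all probes, Benjamini-Hochberg adjusted p = 0.0858).

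Ddit3 (CHOP), the pro-apoptotic factor of the PERK branch, read 1.08, 1.06, 1.50 and 1.19 at P20 and 1.04, 0.75, 0.63 and 0.61 at P200. All P200 arrays were below all P20 arrays, and the change of -0.45 ± 0.13 did not pass (limma, adjusted p = 0.0575). Nupr1, a stress-induced transcription cofactor, read -1.80 on P200 replicate 1 and between -4.30 and -2.98 on the other 7 arrays. These genes were chosen after their values were seen.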
